A study of Oryctolagus cuniculus with 12 samples.

Results

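The expression of 9 genes of platelet-derived growth factor (PDGF) signalling and of the connective tissue cells that carry its receptors was examined in rabbit conjunctiva after glaucoma filtration surgery. They were 3 ligand genes (PDGFA, PDGFB, and PDGFC), 2 receptor genes (PDGFRA and PDGFRB), 2 genes used to mark fibroblasts (FAP and THY1), and 2 genes used to mark pericytes (RGS5 and CSPG4). They were taken by name from the table of 20566 genes, in which each name had 1 row, and all 9 passed the filter on low counts, which kept 14835 genes. All animals were female Japanese white rabbits. In trabeculectomy (TL), aqueous humor is led through an opening in the sclera into a bleb under the conjunctiva. The right eye received this operation together with mitomycin C, an agent that crosslinks DNA and is used to limit scarring, and the conjunctiva with its bleb was taken 3 hours (TL3h), 3 days (TL3d), or 14 days (TL14d) later. The left conjunctiva, with no operation, served as control. Each of the 4 groups held 3 RNA sequencing libraries. The labels give neither the age of the animals nor which control belongs to which operated eye or time. The study describes each group as 3 eyes, and as only right eyes were operated on, the operated libraries of a group came from separate animals. For the control libraries this is not stated. By the study's methods, trabeculectomy ended with betamethasone, a glucocorticoid, injected into the conjunctiva and with an antibiotic ointment. The operation, mitomycin C, betamethasone, and the antibiotics went together in the operated eyes and cannot be told apart.

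PDGFs are secreted dimers that bind 2 receptor tyrosine kinases on the cell surface. PDGFRα is the main receptor for PDGF-AA and PDGF-CC and is carried by many fibroblasts, while PDGFRβ binds PDGF-BB and is carried by pericytes, vascular smooth muscle, and fibroblasts. Platelets, macrophages, and endothelial cells release PDGFs in wounds, where they attract connective tissue cells and drive them to divide. In the conjunctiva, the fibroblasts under the epithelium are the cells that form the scar by which a filtering bleb fails.

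Levels are given as CPM, the counts of a library scaled to a common library total, after TMM normalization. Differences between groups were tested with edgeR's quasi-likelihood method, and q is its p-value after Benjamini-Hochberg adjustment over all 14835 genes tested. A gene was called at a q of 0.05 or less. SE is the standard error of the log2 fold change. The libraries held 27111348 to 38591425 counts. TMM scaled the TL3h libraries by 0.77 to 0.78 and the other libraries by 1.03 to 1.13. With library size in place of TMM, the median log2 fold change over the genes tested at 3 hours went from 0.02 to -0.47, and the calls at 3 hours went from 3435 up and 3298 down to 1889 up and 5674 down.

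Libraries of the same group differed widely in connective tissue genes. The summed level of 17 fibroblast markers, none of them among the 9 genes, was 13920, 37610, and 83270 CPM in the control libraries 1, 2, and 3. It was 111700 to 138100 CPM at 3 hours, 2440, 13720, and 70140 CPM in the TL3d libraries 1, 2, and 3, and 28840, 13470, and 63190 CPM in the TL14d libraries 1, 2, and 3. Of these markers, TCF21 had a count of 0 in 10 libraries and lay under 0.1 CPM in the other two, while the collagen genes COL1A1, COL1A2, and COL3A1 lay at 262 CPM or more in every library. Summed skeletal muscle markers were 445 CPM in control 2 and 447 CPM in TL3d 3, against 1.32 to 57.1 CPM in the other 10 libraries. In bulk tissue, fewer cells of a type and less RNA per cell cannot be told apart.

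**Figure D1:**
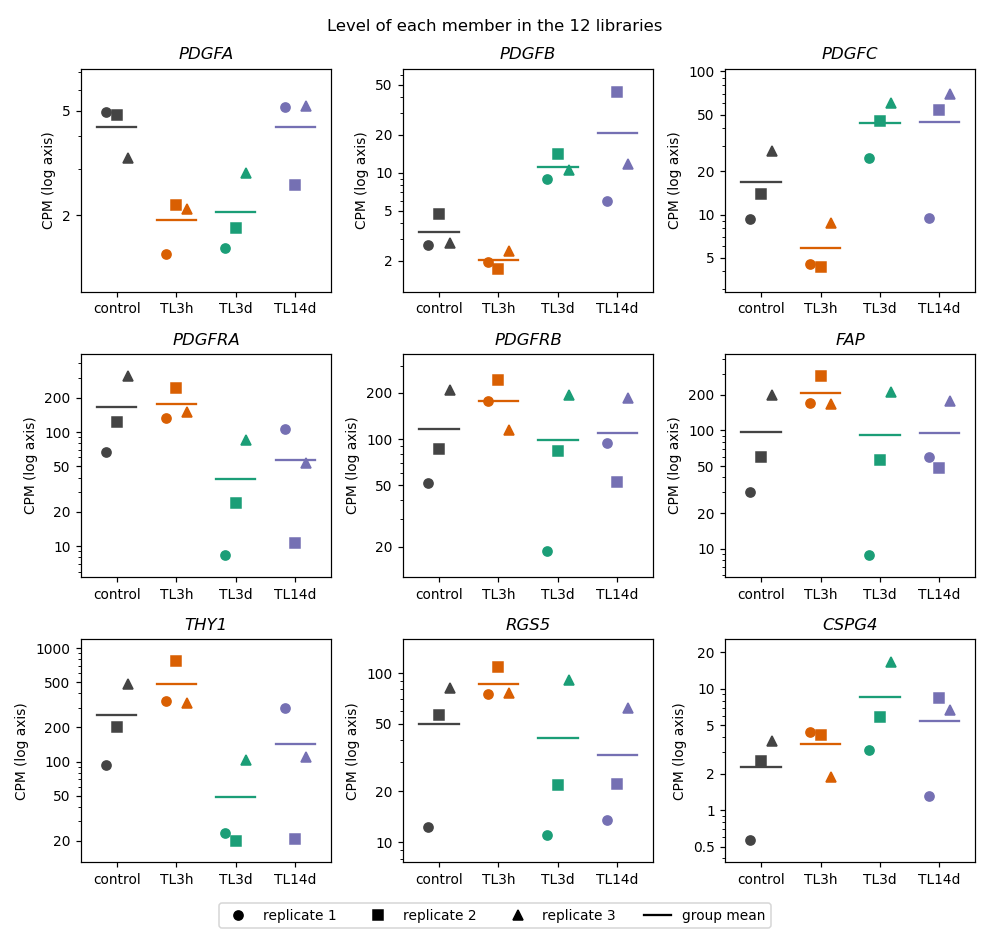
Level of each of the 9 genes in CPM on a log axis, in the 12 libraries by group, with the replicate number as the symbol and the group mean as a bar. PDGFB lies above all controls in every TL3d and TL14d library, from 6.02 to 44.1 CPM, while FAP spans 8.92 to 211 CPM within the TL3d group alone.

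Per transcript length, in the FPKM values that were deposited, THY1 was at the highest level of the 9 genes in the control group (149 ± 110 FPKM, mean ± SD, n = 3), followed by FAP (32.1 ± 29.0), PDGFRA (23.4 ± 17), PDGFRB (18.9 ± 12.8), PDGFA (16 ± 3.79), RGS5 (8.17 ± 5.56), PDGFC (5.17 ± 2.77), PDGFB (1.14 ± 0.415), and CSPG4 (0.259 ± 0.175). The 4 genes from FAP to PDGFA did not differ from their neighbours beyond these SDs. These 3 ligand genes were below both receptor genes in mean level in the control group, with PDGFB and CSPG4 lowest. PDGFD, a ligand gene outside the 9, was at 26.7 ± 15.8 FPKM there, above both receptor genes in mean level. At 3 days the order was different. FAP (30.9 ± 34.8 FPKM) and THY1 (28.7 ± 27.1) led, PDGFC (13.5 ± 5.33) came next after PDGFRB (16.4 ± 14.4), and PDGFRA (5.52 ± 5.59) lay below RGS5 (6.70 ± 6.89), by less than their SDs. At 14 days, PDGFC (13.8 ± 9.69) and PDGFB (7.0 ± 7.04) were again at higher mean FPKM than in the control group. The level of PDGFA rests on an annotated transcript of 396 bases, the shortest of the 9, and its rank at 3 days and 14 days depended on how length was counted.

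With all libraries in edgeR's quasi-likelihood test, the 3 ligand genes and no other of the 9 passed the test of the 3 time points together (q = 0.0265 for PDGFA, 0.00474 for PDGFB, and 0.0200 for PDGFC), beside 52.4% of all genes tested. PDGFB passed it under all 21 alternative settings that gave this test. PDGFA did not pass without control 1, control 2, TL3h 1, TL3d 1, TL3d 2, or TL14d 3 (q from 0.0512 to 0.0606, edgeR), and PDGFC did not pass without TL3h 1 (q = 0.0638) or TL3h 2 (q = 0.0642). THY1 (q = 0.0790, edgeR) passed by the DESeq2 test (q = 0.0111), limma-trend (q = 0.0432), and the likelihood-ratio test (q = 0.0127), and without TL3d 3 (q = 0.0413) or TL14d 1 (q = 0.0367). RGS5 passed with the replicate number as a block (q = 0.0490, edgeR), and without control 3, TL3d 3, and TL14d 1 together, THY1 (q = 0.00897, edgeR) and PDGFRA (q = 0.0227, edgeR) passed as well as the ligand genes. PDGFA was lower at 3 hours, and PDGFB and PDGFC were higher at 3 days than at 3 hours. From the lowest to the highest control library they spanned 1.49-fold (PDGFA), 1.76-fold (PDGFB), and 3.03-fold (PDGFC), and the other 6 genes spanned 4.06-fold to 6.67-fold.

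PDGFA, which encodes the A chain, lies on unplaced sequence of OryCun2.0 (466620526 to 466625301 of the joined unplaced pieces, minus strand). Its level was 4.94, 4.80, and 3.31 CPM in the 3 control libraries, 1.42, 2.20, and 2.12 CPM at 3 hours, 1.5, 1.79, and 2.90 CPM at 3 days, and 5.14, 2.61, and 5.21 CPM at 14 days. All libraries of 3 hours and of 3 days lay below all controls, and those of 14 days overlapped with the controls. PDGFA fell at 3 hours (log2 fold change -1.18, SE 0.37, q = 0.0241, edgeR), when its mean was 2.27-fold lower. It was the 1 gene of the 9 called at 3 hours, where 45.4% of all genes were called. This call was lost without control 1 (q = 0.0729), control 2 (q = 0.0694), or TL3h 1 (q = 0.0715). At 3 days the log2 fold change was -1.08 (SE 0.37, q = 0.0662, edgeR), with q = 0.0441 without TL3d 3 and 0.0447 without TL14d 2. The counts behind these values were low, from 37 to 208.5 per library.

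PDGFB, which encodes the B chain, lies on chromosome 4 of OryCun2.0 (84238980 to 84254741, plus strand). The control libraries held 2.68, 4.73, and 2.78 CPM and the TL3h libraries 1.96, 1.74, and 2.42 CPM. At 3 days the level was 8.92, 14.1, and 10.5 CPM, and at 14 days it was 6.02, 44.1, and 11.7 CPM. The libraries of 3 hours lay below the controls and those of both later times above them, and TL14d 2 stood out from the other 11 libraries. Between 3 hours and 3 days, PDGFB rose 5.48-fold in mean level (log2 fold change 2.45, SE 0.63, q = 0.0125, edgeR). It was called in this comparison under each of the 22 alternative settings, with q from 0.00029 to 0.0446. Against control, the mean was 3.29-fold higher at 3 days (log2 fold change 1.72, SE 0.61, q = 0.0749, edgeR) and 6.06-fold higher at 14 days (log2 fold change 2.6, SE 0.63, q = 0.346, edgeR). Neither passed the threshold. At 3 days q was 0.0254 without TL14d 1 and 0.0132 without TL14d 2, and at 14 days it was 0.0161 without TL14d 1. At 14 days, the DESeq2 test gave PDGFB a q of 0.00349, and limma-trend gave 0.568. The mean at 14 days rested on TL14d 2, without which the log2 fold change was 1.38 (q = 0.978, edgeR).

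Markers of cells known to release PDGF-BB are given beside these levels. Of 6 platelet markers in the table, PPBP lay between 0 and 0.05 CPM in the controls, 16.2 and 34.1 CPM at 3 hours, and 21.3 and 55.1 CPM at 3 days, and it was 0, 287, and 7.0 CPM in the TL14d libraries 1, 2, and 3. ITGB3 was 311 CPM in TL14d 2 and 6.81 to 81.7 CPM in the other libraries. ITGA2B was 5.53 to 8.60 CPM in the controls, 3.99 to 5.39 CPM at 3 hours, 2.87 to 9.42 CPM at 3 days, and 5.38 to 7.10 CPM at 14 days (5.92 in TL14d 2), so that PPBP and ITGB3 made up most of the platelet sum where it was high. The more platelet-restricted GP1BA and GP9 had counts of 0 in 10 and 11 of the 12 libraries and lay under 0.1 CPM in the rest. The summed level of the platelet markers was 12.4 to 25.6 CPM in the controls, 61.2 to 122 CPM at 3 hours, 70.8 to 109 CPM at 3 days, and 14.1 to 603 CPM at 14 days. The sum of 7 monocyte and macrophage markers was 75.7 to 623, 662 to 1014, 1347 to 2176, and 98.0 to 480 CPM in the same order. The sum of 9 endothelial markers was 89.4 to 334, 667 to 1290, 349 to 636, and 114 to 351 CPM. At 3 hours all 3 sums lay above the controls, while PDGFB lay below them. At 3 days all 3 sums and PDGFB lay above the controls. At 14 days PDGFB lay above the controls and each sum overlapped with them, and TL14d 2 was the highest of the 12 libraries both in PDGFB and in the platelet sum. TL14d 2 was also the highest in the sum of 6 melanocyte markers, at 192 CPM against 24.7 to 75.8 CPM in the other libraries. The part of any of these cell types in the level of PDGFB was not tested.

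PDGFC encodes a ligand that is secreted latent and is activated when its CUB domain is cut off. It lies on chromosome 15 (7015705 to 7226237, plus strand). Its level was 9.23, 13.8, and 27.9 CPM in the controls, 4.50, 4.32, and 8.74 CPM at 3 hours, 24.7, 45.1, and 60.6 CPM at 3 days, and 9.48, 53.7, and 70.1 CPM at 14 days. The TL3h libraries lay below all controls, and the TL3d libraries lay above all TL3h libraries but overlapped with control 3. Of the TL14d libraries, TL14d 2 and TL14d 3 were higher than every control, while TL14d 1 was within the range of the controls. PDGFC rose 7.43-fold in mean level between 3 hours and 3 days (log2 fold change 2.89, SE 0.71, q = 0.0102, edgeR). It was called there under all 22 alternative settings, with q from 6.31e-05 to 0.0401. Against control, the log2 fold change was -1.54 at 3 hours (SE 0.68, q = 0.0923), 1.35 at 3 days (SE 0.67, q = 0.174), and 1.39 at 14 days (SE 0.67, q = 0.513), none of them called by edgeR. At 3 hours, PDGFC was called without TL14d 1 (q = 0.0257), by the DESeq2 test (q = 0.0363), and with library size in place of TMM (q = 0.0292).

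PDGFC was the only member with more than 1 annotated transcript. The transcript of 3016 bases held 50.1% to 77.4% of its counts in the 12 libraries, and the other, of 2488 bases, held the rest. The share of the longer transcript was 56.9% to 64.6% in the controls, 50.1% to 74.3% at 3 hours, 51.1% to 68.9% at 3 days, and 59.3% to 77.4% at 14 days, so that all groups overlapped.

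The PDGF receptor genes were not called against control at any time. PDGFRA, whose product is the main receptor for PDGF-AA and PDGF-CC, lies on unplaced sequence (214791683 to 214826496, minus strand). Its level was 66.6, 123, and 310 CPM in the controls, 132, 243, and 149 CPM at 3 hours, 8.37, 23.9, and 84.7 CPM at 3 days, and 107, 10.7, and 53.2 CPM at 14 days. The controls spanned 4.66-fold and the TL3d libraries 10.1-fold from lowest to highest, where the median over the genes whose mean reached 1 CPM was 1.35-fold and 1.32-fold. The TL3d libraries all lay below the TL3h libraries, and TL3d 3 overlapped with the controls. The mean was 4.27-fold lower than control at 3 days (log2 fold change -2.10, SE 0.96, q = 0.143) and 2.93-fold lower at 14 days (log2 fold change -1.55, SE 0.94, q = 0.589), neither called by edgeR. Between 3 hours and 3 days the log2 fold change was -2.16 (SE 0.96, q = 0.101, edgeR), and without TL3d 3 it was -3.43 with q = 0.0318. With all libraries, PDGFRA was called between these times by the DESeq2 test (q = 0.0351), limma-trend (q = 0.0484), and the edgeR likelihood-ratio test (q = 0.0483). At 3 hours the log2 fold change against control was 0.07 (SE 0.92, q = 0.958, edgeR), and with library size in place of TMM it was -0.40.

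PDGFRB, whose product binds PDGF-BB, lies on chromosome 3 (31893997 to 31929290, minus strand). The level was 51.6, 86.3, and 209 CPM in the controls, 177, 243, and 115 CPM at 3 hours, 18.7, 84.0, and 195 CPM at 3 days, and 93.9, 52.8, and 184 CPM at 14 days. Every operated group overlapped with the controls. The log2 fold change was 0.62 at 3 hours (SE 0.78), -0.22 at 3 days (SE 0.78), and -0.07 at 14 days (SE 0.78), with q of 0.550 or more by edgeR. The 95% interval at 3 days ran from -1.96 to 1.51, so that a change of 2-fold in either direction could not be told from none at this spread.

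The proportion of both receptors was compared within libraries, where it does not depend on scaling. The ratio of PDGFRA counts to PDGFRB counts was 1.29, 1.42, and 1.48 in the controls and 0.746, 1.0, and 1.29 at 3 hours. It was 0.448, 0.285, and 0.435 at 3 days, and 1.14, 0.203, and 0.288 at 14 days. All TL3d libraries lay below all libraries of the control and TL3h groups, including TL3d 3, whose PDGFRA level was within the range of the controls. TL14d 1 lay close to the controls and the other two TL14d libraries with the TL3d group. The ratio of PDGFB to PDGFA was 0.542 to 0.984 in the controls, 0.792 to 1.38 at 3 hours, and 3.63 to 7.90 at 3 days, and it was 1.17, 16.8, and 2.24 at 14 days. For this pair, the TL3d and TL14d libraries all lay above the controls. These ratios are given as a description, and an exact permutation test of 3 libraries against 3 could not give a two-sided p below 0.10.

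**Figure D2:**
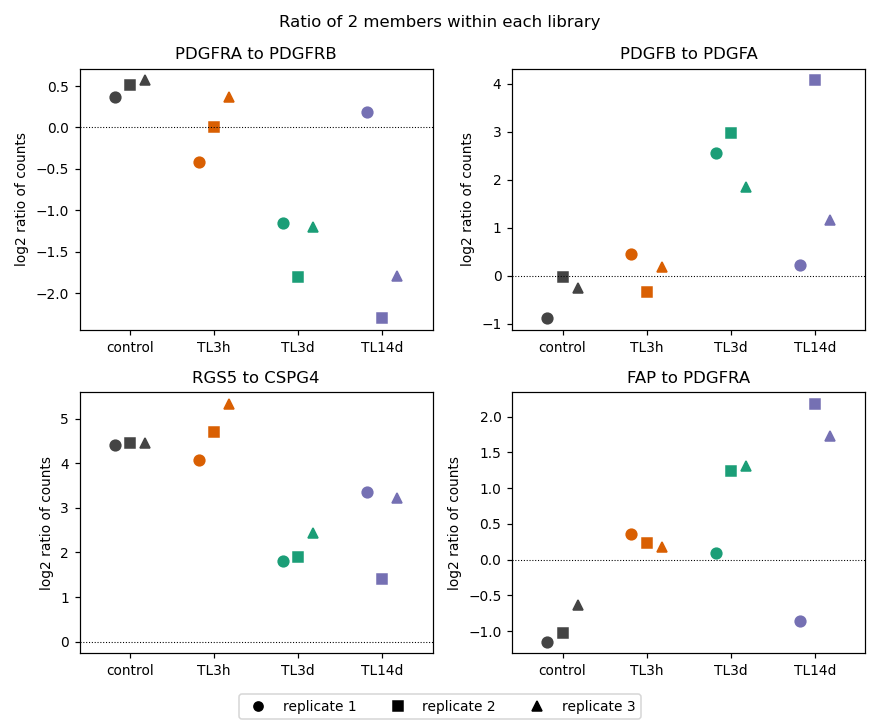
Log2 ratio of the counts of 2 genes within each library, for 4 pairs, by group, with the replicate number as the symbol and a dotted line where both counts are equal. PDGFRA to PDGFRB is between 1.29 and 1.48 as a ratio in the controls and at most 0.448 in the TL3d libraries, and RGS5 to CSPG4 is between 21.6 and 22.1 in the controls and at most 5.45 in the TL3d libraries.

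Of the 2 fibroblast genes, THY1 was called between 3 hours and 3 days by edgeR with all libraries, and FAP was called in no comparison of that fit. FAP encodes fibroblast activation protein, a membrane protease of fibroblasts in wounds and tumor stroma, and lies on chromosome 7 (101308831 to 101389981, minus strand). Its level was 30.1, 60.0, and 200 CPM in the controls, 169, 286, and 168 CPM at 3 hours, 8.92, 56.7, and 211 CPM at 3 days, and 59.0, 48.5, and 176 CPM at 14 days. The TL3d libraries spanned 23.6-fold, and each operated group overlapped with the controls. The log2 fold change against control was 1.10 at 3 hours (SE 1.0), -0.07 at 3 days (SE 0.98), and -0.03 at 14 days (SE 0.98), with q of 0.402 or more by edgeR. From 3 hours to 3 days it was -1.17 (SE 1.0, q = 0.381, edgeR), and -2.62 (q = 0.0490, edgeR) without control 3, TL3d 3, and TL14d 1, which were left out together after the data were seen.

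THY1 encodes CD90, a surface glycoprotein of fibroblasts that T cells and neurons can also carry, and lies on unplaced sequence (297649594 to 297652038, minus strand). The level was 93.7, 201, and 480 CPM in the controls, 342, 770, and 329 CPM at 3 hours, 23.5, 20.1, and 104 CPM at 3 days, and 296, 20.8, and 110 CPM at 14 days. The TL3d libraries lay below all TL3h libraries, and TL3d 3 overlapped with the controls. THY1 fell 9.77-fold in mean level between 3 hours and 3 days (log2 fold change -3.29, SE 1.03, q = 0.0298, edgeR). The call was lost without TL3h 2 (q = 0.0866), TL3d 1 (q = 0.0951), or TL3d 2 (q = 0.101). Against control, the log2 fold change was 0.90 at 3 hours (SE 0.95, q = 0.477), -2.39 at 3 days (SE 0.99, q = 0.112), and -0.86 at 14 days (SE 0.95, q = 0.777), none of them called by edgeR. Of the T cell markers, CD3E was between 1.27 and 6.10 CPM, CD2 reached 8.96 CPM, and CD5 reached 6.35 CPM. These values are not divided by transcript length and are not compared with the level of THY1. The neuronal markers RBFOX3 and SNAP25 were at or below 0.326 CPM in all libraries, and UCHL1, which was 0.593 to 2.86 CPM, rose at 3 hours (q = 0.0307) and 3 days (q = 0.0147) by edgeR. Their part in the level of THY1 was not tested.

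The ratio of FAP to PDGFRA counts, again a description, set the TL3h and TL3d groups apart from the controls but not from each other. It was 0.451, 0.488, and 0.645 in the controls, 1.28, 1.17, and 1.13 at 3 hours, and 1.07, 2.37, and 2.49 at 3 days. All TL3h and TL3d libraries lay above all controls. At 14 days, the ratio was 0.553 in TL14d 1, within the range of the controls, and 4.53 and 3.31 in TL14d 2 and TL14d 3, above every other library.

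FAP, PDGFRB, and RGS5 were each highest in TL3h 2, TL3d 3, and control 3, which all had a high fibroblast marker sum. PDGFRA and THY1 were lower in TL3d and TL14d libraries than in controls with similar sums, with TL14d 1 as the exception, and no control had a sum as low as that of TL3d 1. Control 1, TL3d 2, and TL14d 2 had fibroblast sums of 13920, 13720, and 13470 CPM. FAP was 30.1, 56.7, and 48.5 CPM in these libraries and PDGFRB was 51.6, 84.0, and 52.8 CPM, whereas PDGFRA was 66.6, 23.9, and 10.7 CPM and THY1 was 93.7, 20.1, and 20.8 CPM. Control 3, TL3d 3, and TL14d 3 had the highest sums of their groups (83270, 70140, and 63190 CPM), with PDGFRA at 310, 84.7, and 53.2 CPM and THY1 at 480, 104, and 110 CPM. TL14d 1, with a sum of 28840 CPM, had PDGFRA at 107 CPM and THY1 at 296 CPM, beside 123 and 201 CPM in control 2 with a sum of 37610 CPM. The 3 collagen genes made up most of the sum in each of these libraries, and its members differed in direction. Of the 17 markers, 7 were lower in both TL3d 2 and TL14d 2 than in control 1, among them DCN (1500, 843, and 291 CPM in control 1, TL3d 2, and TL14d 2) and CD34 (90.2, 31.3, and 15.8 CPM). A further 6 were higher in both, among them LUM (217, 422, and 433 CPM) and VIM (239, 895, and 1230 CPM). These sets of libraries were chosen after their values were seen, and the part of the fibroblast content in the levels was not tested.

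**Figure D3:**
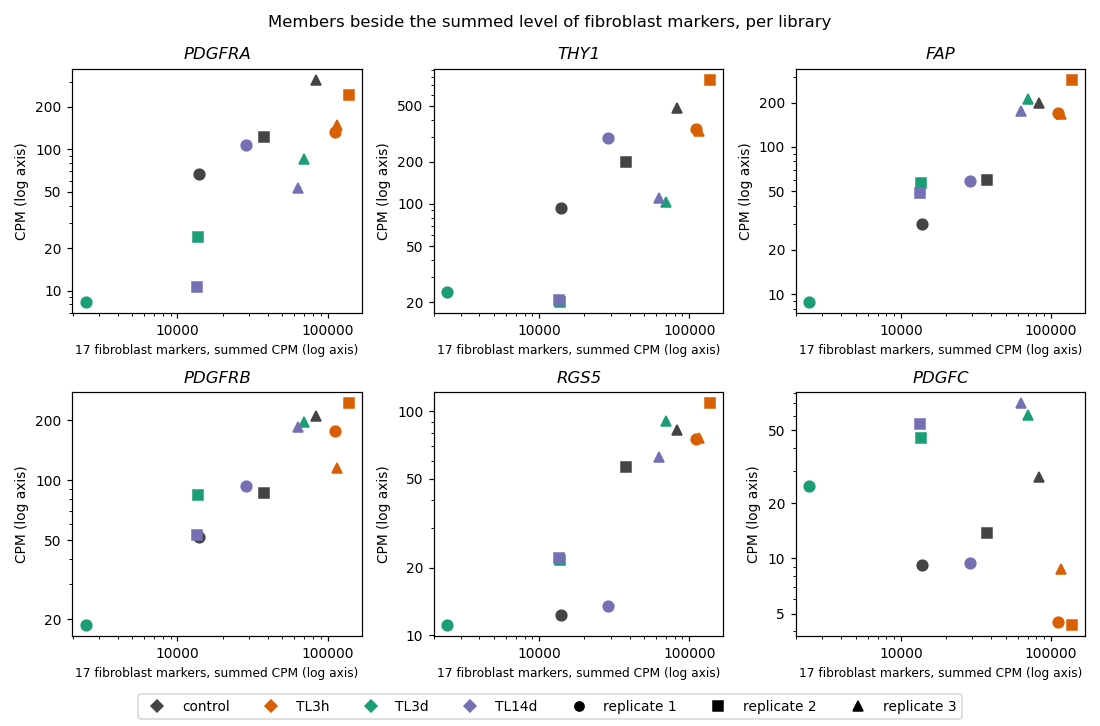
CPM of 6 genes against the summed CPM of 17 fibroblast markers, both on log axes, for the 12 libraries, with the group as color and the replicate as symbol. FAP, PDGFRB, and RGS5 are each highest in TL3h 2, TL3d 3, and control 3, PDGFRA and THY1 are lower in TL3d 2 and TL14d 2 than in control 1 at similar sums, and PDGFC is lowest in the TL3h libraries, whose sums are the highest.

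Neither pericyte gene was called in any comparison by edgeR with all libraries and no block. RGS5, a regulator of G protein signalling in mural cells of vessels, lies on chromosome 13 (29746307 to 29817714, plus strand). It was at 12.3, 56.4, and 82.2 CPM in the controls, 75.2, 109, and 75.7 CPM at 3 hours, 11.1, 21.7, and 90.6 CPM at 3 days, and 13.5, 22.1, and 62.3 CPM at 14 days, and every operated group overlapped with the controls. The log2 fold change was 0.78 at 3 hours (SE 0.86), -0.29 at 3 days (SE 0.85), and -0.62 at 14 days (SE 0.86), with q of 0.491 or more by edgeR. From 3 hours to 3 days it was -1.07 (SE 0.86, q = 0.352, edgeR). RGS5 was called there with the replicate number as a block (log2 fold change -1.75, q = 0.0404, edgeR) and without control 3, TL3d 3, and TL14d 1 (log2 fold change -2.37, q = 0.0360, edgeR).

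CSPG4, which encodes the proteoglycan NG2 of pericytes and other mesenchymal cells, lies on unplaced sequence (237471221 to 237498118, plus strand). It was at 0.570, 2.55, and 3.71 CPM in the controls, 4.42, 4.15, and 1.87 CPM at 3 hours, 3.15, 5.82, and 16.6 CPM at 3 days, and 1.31, 8.37, and 6.64 CPM at 14 days. Control 1 was the lowest library with 24 counts and TL3d 3 the highest with 583.5, and the groups overlapped. The mean was 3.74-fold higher than control at 3 days (log2 fold change 1.90, SE 0.86, q = 0.140, edgeR). TL3d 3 also had 83.7 CPM of DES, a gene of muscle cells that also marks pericytes, against 0.672 to 25.5 CPM in the other libraries. Control 2, whose skeletal muscle sum was 445 CPM against 447 CPM in TL3d 3, had 25.5 CPM of DES and 2.55 CPM of CSPG4. The part of muscle in the CSPG4 level of TL3d 3 was not tested.

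The ratio of RGS5 to CSPG4 counts was 21.6, 22.1, and 22.1 in the controls, although both genes varied 6.52-fold or more between them. It was 17, 26.2, and 40.6 at 3 hours, 3.52, 3.72, and 5.45 at 3 days, and 10.3, 2.64, and 9.39 at 14 days. All libraries of 3 days and 14 days lay below all libraries of the control and TL3h groups. The ratio was lower at 3 days than in the controls, while neither gene alone was called against control. The control ratios lay close together, but they rest on CSPG4 counts of 24, 102, and 148, too low to resolve so small a spread. At 3 hours, with CSPG4 counts of 51 to 115, the ratio varied more.

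**Figure D4:**
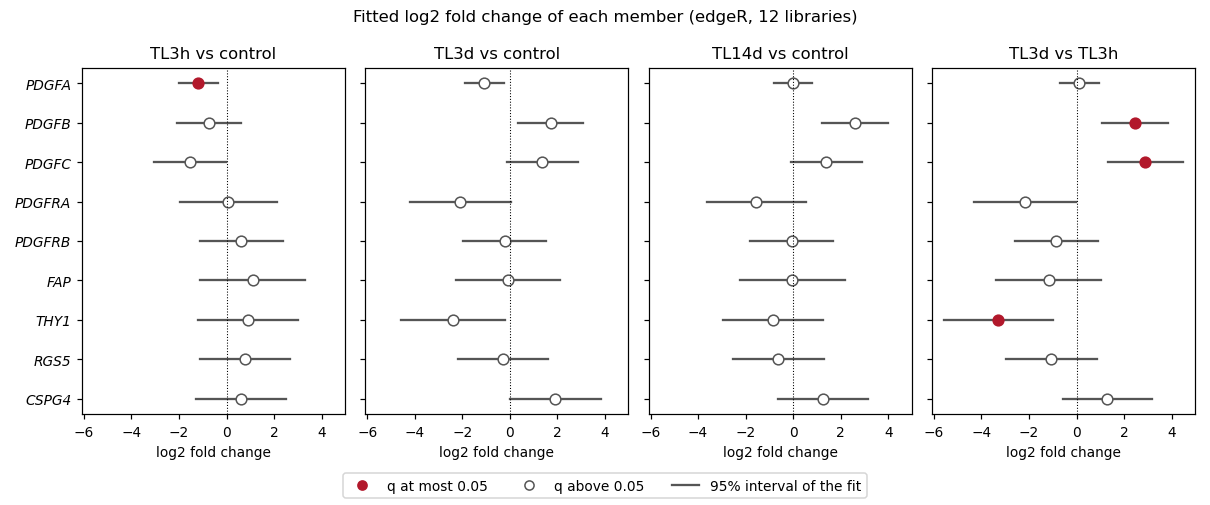
Log2 fold change of each gene with its 95% interval in 4 comparisons from the edgeR fit of 12 libraries, with red points for q at most 0.05. Of the 9 genes, PDGFA is called at 3 hours (-1.18), and PDGFB (2.45), PDGFC (2.89), and THY1 (-3.29) are called between 3 hours and 3 days.

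Against control, 1 of the 9 genes was called at 3 hours, 0 at 3 days, and 0 at 14 days by edgeR, where 45.4%, 17.6%, and 0% of all 14835 genes were called. At an unadjusted p under 0.05 in edgeR these counts were 2, 3, and 1 of the 9, beside 52.3%, 36.2%, and 10.4% of all genes. The DESeq2 test called 2 of the 9 genes at 3 hours, 3 at 3 days (PDGFA, PDGFB, and THY1), and 1 at 14 days (PDGFB), beside 50.8%, 30.1%, and 2.47% of all genes by the same test. By limma-trend, none was called at 3 days or 14 days, beside 18.7% and 0% of all genes. Between 3 hours and 3 days, 3 of the 9 genes were called, 2 up and 1 down, beside 37.3% of all genes. The libraries of the groups compared did not overlap for 3 of the 9 genes at 3 hours (57.3% of all genes), 2 at 3 days (45.5%), 1 at 14 days (11.1%), and 4 between 3 hours and 3 days (54.7%). The median log2 fold change of the 9 genes was 0.61, -0.23, and -0.03 against control at the 3 times, and that of all genes was 0.02, 0.00, and 0.02. In each of these 4 comparisons by edgeR, the share of the 9 genes that was called was not above that of all genes. The 3 comparisons with control share the control libraries.

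Of 9 measured genes that process or bind PDGFs, 4 rose at 3 hours, 4 at 3 days, and 0 at 14 days, and none fell, beside 45.4%, 17.6%, and 0% of all genes called in either direction. FURIN, a protease that cuts PDGF precursors, had a log2 fold change of 1.66 at 3 hours (SE 0.22, q = 0.000311, edgeR) and 1.59 at 3 days (SE 0.22, q = 0.00851, edgeR). PLAT encodes tissue plasminogen activator, which activates PDGF-CC, and its mean was 38.2 CPM in the controls, 1889 CPM at 3 hours, and 412 CPM at 3 days (log2 fold changes 5.63 and 3.43, q = 0.00144 and 0.0313, edgeR). PLAU, the urokinase gene, whose product activates PDGF-DD, was at 122, 1120, and 686 CPM (log2 fold changes 3.20 and 2.5, q = 0.00638 and 0.0434, edgeR). PDGFC itself was at its lowest when PLAT was at its highest. The remaining called gene at both times was NRP2, a neuropilin. The median log2 fold change of this list was 1.51 at 3 hours and 1.53 at 3 days, and -0.01 at 14 days.

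Of 29 measured genes that carry the signal of the receptors in the cell, 8 rose and 5 fell at 3 hours, 1 rose at 3 days, and none was called at 14 days, beside the same 45.4%, 17.6%, and 0% of all genes. SHC1, an adaptor that links receptors to Ras, had a log2 fold change of 1.20 at 3 hours (SE 0.19, q = 0.000635) and 0.74 at 3 days (SE 0.18, q = 0.0263), both by edgeR. STAT3, a transcription factor of cytokine receptors as well, went from a mean of 467 to 1316 CPM at 3 hours (q = 0.00109, edgeR), and PIK3R1, a regulatory subunit of PI3 kinase, went from 207 to 90.0 CPM (q = 0.00354, edgeR). The median log2 fold change of the list was 0.13, 0.02, and -0.08 at the 3 times.

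Of 11 measured genes listed as restraining the receptors, 5 rose and 2 fell at 3 hours, 3 rose and 1 fell at 3 days, and none was called at 14 days, beside the same shares of all genes. PTPN2 and PTPN1, tyrosine phosphatases that act on receptor kinases, had log2 fold changes of 1.26 (SE 0.17, q = 0.000326) and 1.08 (SE 0.22, q = 0.00274) at 3 hours by edgeR. At 3 days, PTPN1 (0.78, SE 0.22, q = 0.0363) and CBL (0.72, SE 0.19, q = 0.0318), a ubiquitin ligase that sends receptors to degradation, were called up by edgeR. The list also held IFT88, a gene of the primary cilium, from which PDGFRα signals in fibroblasts, and so no restraint. It was 1 of the 2 genes that fell at 3 hours and the 1 that fell at 3 days, at 13.8 CPM in the controls, 4.49 CPM at 3 hours (q = 0.000287, edgeR), and 7.86 CPM at 3 days (q = 0.0295, edgeR).

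Markers of fibroblasts and pericytes were set beside the 45.4% and 17.6% of all genes called at 3 hours and 3 days. Of 16 fibroblast markers tested, 2 rose and 1 fell at 3 hours, 1 rose and 1 fell at 3 days, and 0 were called at 14 days. PDPN, the podoplanin gene, which lymphatic endothelium and epithelium express too, was at 48.3, 399, and 226 CPM in the control, TL3h, and TL3d groups (q = 0.00215 and 0.0279, edgeR), and VIM was called up at 3 hours (q = 0.0456, edgeR). DPP4, which epithelium also expresses, was at 349, 177, and 210 CPM (q = 0.00457 and 0.0430, edgeR). Of 14 markers of pericytes and other mural cells, 1 fell at 3 hours, 1 rose at 3 days, and 0 were called at 14 days. NOTCH3 was at 247 CPM in the controls and 55.0 CPM at 3 hours (q = 0.000749, edgeR), and ANPEP was at 12.6 CPM in the controls and 43.1 CPM at 3 days (q = 0.0307, edgeR). Both are also expressed by cells other than pericytes. The pericyte marker HIGD1B was at or below 1.05 CPM in every library.

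Among other cell types, 2 of 9 endothelial markers rose at 3 hours, 2 of 7 monocyte and macrophage markers rose at 3 hours and 5 at 3 days, and 1 of 3 tested platelet markers rose at each of these times, with the same 45.4% and 17.6% of all genes called. Of 9 Schwann cell and glia markers, 1 rose and 2 fell at 3 hours. Of 6 markers of T cells and neurons, 1 rose and 1 fell at 3 hours and 1 rose at 3 days. Of 7 epithelial markers, 2 rose at 3 hours and 1 at 3 days. None of 6 melanocyte markers and none of 4 skeletal muscle markers was called. No marker of any list was called at 14 days by edgeR, where 1538 of all genes had an unadjusted p under 0.05, and where DESeq2 called 367 genes and limma-trend called 0.

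The genes with the pattern most like each member were found by Pearson's r of log2(CPM + 0.5) over the 12 libraries, among the 13274 genes whose mean reached 1 CPM. These r are a description, since the libraries share groups and connective tissue content. For FAP they were GPX7 (r = 0.993), TMEM45A (0.990), and LOX (0.984), the gene of lysyl oxidase, which crosslinks collagen. PDGFRB was most like FAP (0.977), CACNA1G (0.974), and DPT (0.974), the gene of the matrix protein dermatopontin. PDGFRA was most like PLSCR4 (0.987), CERS4 (0.983), and LVRN (0.981), and THY1 was most like IL11RA (0.985), DNM1 (0.984), and LOC103346332 (0.982). RGS5 was most like ADIPOQ (0.980), the adiponectin gene of fat cells, then ABHD10 (0.951) and SRPX (0.944). CSPG4 was most like NT5C3B (0.966) and the collagen genes COL5A3 (0.958) and COL15A1 (0.931). For the ligands, the first genes were GALM (0.955), SIRT4 (0.946), and ZBTB26 (0.945) for PDGFA, GMPR (0.969), CASP6 (0.957), and TMEM132A (0.954) for PDGFB, and MACF1 (0.971), ST7 (0.957), and CDK14 (0.953) for PDGFC. Both receptors therefore had different genes nearest to them, and only PDGFRB had another member among its first 3.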

How the data were processed

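RNA of rabbit conjunctiva was measured in 12 libraries. The authors mapped the reads with STAR 2.6.0c to OryCun2.0, per the submitters' processing notes, and deposited estimated counts without scaling to depth, and 23.4% of these values were fractions. How reads were shared is not given in the sources used here. The authors also deposited FPKM values, divided by transcript length and depth, which were used here to compare levels between genes within a group and to set the group means of a gene side by side, with no test. Every column of samples in the tables was used (0 left out).

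Estimated counts were rounded to integers. Of 20566 genes, 14835 passed filterByExpr with a minimum count of 10 and a minimum total of 15. All 12 libraries entered 1 quasi-likelihood fit in edgeR 4.0.16 under R 4.3.3, with TMM, no covariates, and a prior count of 0.125 for fold changes. Groups were taken from the sample labels. Each time was tested against control, TL3d against TL3h, and the 3 times together, with Benjamini-Hochberg adjustment over all genes tested and a threshold of 0.05. The script was tested on simulated data. No libraries of a group agreed within sampling noise. A count of 0 allows up to 3 counts, or 0.0712 to 0.124 CPM, for counting error only.

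The 9 members and all gene lists were chosen with earlier results of these data known. The genes named are the 9 members, the called genes with the 3 smallest q of each PDGF, fibroblast, and pericyte list in each comparison with control, and the 3 genes most correlated with each member, and a name outside this rule was chosen after its values were seen, which holds for NRP2, DCN, CD34, LUM, PDGFD, PDGFRL, LRRC15, ACTA2, TAGLN, and the markers given beside a result. Alternatives were DESeq2 1.42.0 size factors and test, library size only, limma-trend (limma 3.58.1), the edgeR likelihood-ratio test, no filter, a filter of at least 1 CPM in at least 3 libraries, the compared libraries alone, the replicate number as a block, counts over transcript width in place of FPKM, each library left out in turn, and, chosen after seeing the data, control 3, TL3d 3, and TL14d 1 left out together.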

Additional observations from a re-analysis of the deposited data

Results flagged for a closer look

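The effects of 3 days and of 3 hours differed by a direct test of both times for 3 of the 9 genes, with q from the edgeR quasi-likelihood test. The log2 fold change between TL3d and TL3h was 2.45 for PDGFB (q = 0.0125), 2.89 for PDGFC (q = 0.0102), and -3.29 for THY1 (q = 0.0298). Against control, PDGFB and PDGFC had fold changes below 0 at 3 hours and above 0 at 3 days on the log2 scale, and THY1 the opposite, and none of these 6 values was called by edgeR.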

How the results depend on the processing

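Over the 9 genes and 4 comparisons, 724 of 792 values under 22 alternative settings kept their direction and their side of the threshold, 6 lost a call, 32 gained one, and 30 changed sign. At 3 hours, 2 members were called with library size only, by DESeq2, with the 6 compared libraries alone, and with the replicate block, and 0 to 2 with 1 library left out. Over all genes, the calls were 7563, 7534, 6488, and 6946 in the same order, and 5280 to 7271 with 1 library left out. At 3 days, 3 were called by DESeq2, 1 by the likelihood-ratio test, 1 with the 6 libraries alone, 2 with the replicate block, and 0 to 2 with 1 library left out. The calls over all genes were 4471, 3154, 3263, and 2719 in the same order, and 359 to 3778 with 1 library left out. At 14 days, DESeq2 and the likelihood-ratio test called 1 each, and 0 to 1 were called with 1 library left out. For the 3 times together, 1 to 4 were called with 1 library left out, the fewest without TL3h 1. Between 3 hours and 3 days, 2 to 4 were called in this way. Over all genes, these fits called 6238 to 8536 and 3954 to 6231 in the same order. Without control 3, TL3d 3, and TL14d 1 together, 3 members were called at 3 days, 2 at 14 days, 6 between 3 hours and 3 days, and 5 for the 3 times together, beside 25.9%, 8.17%, 42.1%, and 60.9% of all genes. Over all genes, the calls at 3 days went from 2608 to 4471 by DESeq2, and to 491, 370, 449, and 359 without control 1, control 2, TL3d 1, and TL3d 2, with a range of 359 to 3778 for 1 library left out. At 14 days they were 367 by DESeq2, 216 by the likelihood-ratio test, 1222 without the 3 libraries, and 0 to 716 with 1 library left out, the most without TL14d 1.

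The values that changed sign were not called in any setting. At 3 hours, PDGFRA was -0.40 with library size only and ran from -0.31 to 0.83 with 1 library left out. At 3 days, with 1 library left out, PDGFRB ran from -1.17 to 0.51, FAP from -1.56 to 1.02, and RGS5 from -1.62 to 0.25. At 14 days, with 1 library left out, PDGFA ran from -0.19 to 0.25, PDGFRB from -0.66 to 0.67, and FAP from -0.85 to 1.06, FAP was 0.16 by limma-trend, and the replicate block gave 0.074 for PDGFRB and 0.22 for FAP. Without the 3 libraries, the values at 14 days were 0.77 for PDGFRB, 1.31 for FAP, and 0.29 for RGS5. Between 3 hours and 3 days, PDGFA ran from -0.22 to 0.29 with 1 library left out and -0.18 without the 3 libraries. The cause of these changes was not tested.

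Whether replicate numbers pair the libraries is not known. The correlation of same-numbered deviations ran from -0.207 to 0.534, which cannot settle it with 3 libraries per group. With the replicate block, PDGFC was called at 3 hours (q = 0.0217) and, with PDGFB (q = 0.0459), at 3 days (q = 0.0464), and RGS5 between 3 hours and 3 days (q = 0.0404, edgeR). With counts over transcript width, 9, 9, 6, and 7 of the 9 genes kept their FPKM rank in the control, TL3h, TL3d, and TL14d groups. A spread of up to 23.6-fold within a group limits what 3 libraries can show for the receptor, fibroblast, and pericyte genes.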

Other observations

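The ligand and receptor list held 2 further genes, both outside the 9 and chosen after their values were seen. PDGFRL, a gene of a secreted protein that resembles the ligand-binding part of the receptors, was at 34.5, 108, and 402 CPM in the controls, 335, 825, and 476 CPM at 3 hours, 2.37, 11.9, and 67.6 CPM at 3 days, and 124, 14.3, and 131 CPM at 14 days. It fell between 3 hours and 3 days (log2 fold change -4.32, SE 1.35, q = 0.0297, edgeR), with all TL3d libraries below all TL3h libraries. PDGFD, the fourth ligand gene, was at 70.8, 77.3, and 201 CPM in the controls, 94.6, 102, and 87.6 CPM at 3 hours, 16.8, 22.8, and 72.5 CPM at 3 days, and 64.8, 43.2, and 91.3 CPM at 14 days. Its log2 fold change was -1.64 at 3 days (SE 0.58, q = 0.0724, edgeR), against 1.72 for PDGFB.

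LRRC15, a gene of fibroblasts in scars and tumor stroma, was chosen after its values were seen. It lay at 0.142 CPM or less in the controls, 1.46 to 4.23 CPM at 3 hours, 0.275, 4.77, and 57.4 CPM in the TL3d libraries 1, 2, and 3, and 0, 56.2, and 286 CPM in the TL14d libraries 1, 2, and 3. Its q was 0.0677 at 3 days and 0.346 at 14 days by edgeR. ACTA2, the gene of smooth muscle actin, was 5.14, 142, and 352 CPM in the same TL14d libraries and TAGLN was 3.19, 452, and 578 CPM, against 6.19 to 17.9 and 2.99 to 15.5 CPM in the controls. Both lay above all controls already at 3 hours (29.7 to 35.2 and 104 to 132 CPM). At 3 days ACTA2 was 21.1, 120, and 450 CPM (q = 0.0610, edgeR) and TAGLN was 22.2, 199, and 551 CPM (q = 0.0568, edgeR). TL14d 1 was within or below the range of the controls for LRRC15 and ACTA2, as it was for PDGFC. FAP was 59.0, 48.5, and 176 CPM in the TL14d libraries 1, 2, and 3.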
